A study of Mus musculus with 16 samples.

Results

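Transcripts of 10 choroid plexus genes were followed through 16 libraries of mouse brain cortex, as markers of neighbouring tissue that such samples can carry. The 10 genes were Ttr, Folr1, Kl, Kcnj13, Aqp1, Enpp2, Otx2, Slc4a5, F5 and Sostdc1. They were picked by symbol from the 55385 genes of the count table, with earlier results of these data known. Of the 10, 10 were among the 17555 genes that passed the low-count filter. Every mouse was 9 months old, no treatment is given in the labels, and each of the 4 groups held 4 mice, 2 females and 2 males: 5xFAD-Dp16, 5xFAD, Dp16 and wild-type C57BL/6J. 5xFAD mice carry human transgenes with familial Alzheimer's disease mutations, driven by the neuronal Thy1 promoter. Dp16 mice carry an extra copy of a segment of mouse chromosome 16 that matches much of human chromosome 21, and 5xFAD-Dp16 mice carry both. The labels give the strain background of the wild-type group alone, and say nothing of litters or of how the cortex was cut. They name separate samples, and the p-values measure the spread between these samples.

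The choroid plexus is a frond of secretory epithelium that hangs in the brain ventricles and makes cerebrospinal fluid. Its epithelial cells take folate, ions and water from the blood side to the fluid side, and secrete transthyretin into the fluid. Cortex itself contains no choroid plexus, but the lateral ventricles lie directly under it, and dissected cortex can carry fragments of neighbouring tissue. How much of it each sample held was not recorded in the labels. In bulk RNA, the number of choroid plexus cells and the amount of RNA in each of them cannot be told apart.

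The members cover several roles. Ttr (ENSMUSG00000061808, chromosome 18, 20665280 to 20674321) encodes transthyretin, the carrier of thyroxine and retinol-binding protein. Enpp2 (ENSMUSG00000022425, chromosome 15, 54838901 to 54952892) encodes autotaxin, a secreted enzyme that makes lysophosphatidic acid and that oligodendrocytes also produce. Sostdc1 (ENSMUSG00000036169, chromosome 12, 36314139 to 36318452) encodes a secreted antagonist of BMP and Wnt signals. F5 (ENSMUSG00000026579, chromosome 1, 164151838 to 164220277) encodes coagulation factor V. Kl (ENSMUSG00000058488, chromosome 5, 150952607 to 150993817) encodes klotho, a co-receptor of the hormone FGF23 that is also shed into fluid.

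The other members take part in transport or control transcription. Folr1 (ENSMUSG00000001827, chromosome 7, 101858331 to 101870788) encodes the folate receptor that carries folate into the fluid. Slc4a5 (ENSMUSG00000068323, chromosome 6, 83219828 to 83304945) encodes a sodium bicarbonate cotransporter. Aqp1 (ENSMUSG00000004655, chromosome 6, 55336432 to 55348555) encodes the water channel of the fluid-facing membrane. Kcnj13 (ENSMUSG00000079436, chromosome 1, 87386363 to 87394729) encodes an inwardly rectifying potassium channel. Otx2 (ENSMUSG00000021848, chromosome 14, 48657677 to 48673819) encodes a homeodomain transcription factor that shapes the developing forebrain and midbrain and stays on in the adult epithelium. Coordinates are those of GRCm38, and none of the members lies in the triplicated segment of chromosome 16.

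Promoters are shown for 3 members, with ratios to Ttr compared among the 5 libraries of highest Ttr. In 5xFAD-Dp16 replicate 4 the ratio stood high for 2 of them (Kl and Slc4a5) and lay in the range of the others for 1 (Kcnj13). Each is 300 bases from RefSeq on GRCm38.p6, from 250 bases before the annotated start to 50 after it, read in the direction of the gene. Capitals mark TAATC, or GATTA on the other strand, the core that homeodomain factors of the Otx2 kind prefer.
Kl promoter (chr5:150952357-150952656, plus strand): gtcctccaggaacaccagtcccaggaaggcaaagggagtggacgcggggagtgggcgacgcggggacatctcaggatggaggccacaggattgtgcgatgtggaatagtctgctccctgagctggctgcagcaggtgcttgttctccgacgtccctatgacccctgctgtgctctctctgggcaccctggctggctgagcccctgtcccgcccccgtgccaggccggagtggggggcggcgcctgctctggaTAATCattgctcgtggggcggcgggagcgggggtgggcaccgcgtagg
Kcnj13 promoter (chr1:87394680-87394979, minus strand): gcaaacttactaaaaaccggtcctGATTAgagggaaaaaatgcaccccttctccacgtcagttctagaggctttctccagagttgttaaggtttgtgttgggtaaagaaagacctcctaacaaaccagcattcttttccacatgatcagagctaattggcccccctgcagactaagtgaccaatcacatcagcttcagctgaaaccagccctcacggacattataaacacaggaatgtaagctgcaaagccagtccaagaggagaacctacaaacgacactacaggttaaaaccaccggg
Slc4a5 promoter (chr6:83237125-83237424, plus strand): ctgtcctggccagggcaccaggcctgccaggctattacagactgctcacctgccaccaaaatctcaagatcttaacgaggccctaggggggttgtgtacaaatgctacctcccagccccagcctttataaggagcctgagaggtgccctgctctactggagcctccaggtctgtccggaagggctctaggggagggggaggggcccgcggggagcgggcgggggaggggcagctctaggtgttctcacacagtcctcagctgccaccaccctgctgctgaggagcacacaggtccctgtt
RefSeq promoters were found for 6 of the 10 members. TAATC on either strand was present for 3 of these 6 genes (Kcnj13, Kl and Otx2). Counted by promoter, it was in 3 of the 9 promoters of these genes, and in 22.0% of all 32851 promoters of the same length. The longer motif TAATCC, or GGATTA, which contains TAATC, was present for 1 of the 6 genes (Otx2). It was in 1 of the 9 member promoters and in 7.06% of all promoters. These are matches of letters in this window only, and the Slc4a5 window lies at a RefSeq start inside the gene as placed above.

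Library totals ran from 16874481 to 22912168 counts. Levels below are CPM (read counts scaled to a common library size) after TMM normalization, which scales library totals, and levels of different genes are compared as RPKM, which is per gene length. The cortex label was checked with 10 markers of cortical projection neurons, which summed to 1232 to 1672 CPM in 5xFAD-Dp16, 1076 to 1534 in 5xFAD, 1029 to 1648 in Dp16 and 873 to 1826 in wild-type libraries. Some members overlap other genes. Folr1, Kcnj13, Enpp2, Otx2 and F5 overlap a gene on the opposite strand (Anapc15, Gigyf2, Gm26684, Otx2os1 and Gm16548, in that order), and Otx2 and F5 also one on their own strand (Gm49154 and Gm16588). The labels do not say if reads were counted by strand, which leaves low counts of these 5 genes uncertain.

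Ttr was the member with the highest mean level and the most variable one. Its counts were 17038, 145, 583 and 43911 in 5xFAD-Dp16 replicates 1 to 4, and 349, 619, 343 and 14010 in 5xFAD replicates 1 to 4. They were 22112, 194, 105 and 27451 in Dp16 replicates 1 to 4, and 5136, 4461, 848 and 204 in wild-type replicates 1 to 4. Each group held libraries both high and low in Ttr, and all 4 groups overlapped.

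In CPM, Ttr stood at 764, 6.49, 30.0 and 2182 in 5xFAD-Dp16, at 16.6, 30.5, 14.97 and 615 in 5xFAD, at 968, 9.35, 5.21 and 1251 in Dp16, and at 302, 231, 51.2 and 9.59 in wild-type libraries. The highest library exceeded the lowest 419-fold. Group means ran in the order 5xFAD-Dp16 (746 ± 1020), Dp16 (558 ± 647), 5xFAD (169 ± 297) and wild-type (148 ± 140 CPM, SD, n = 4 each). The SD was close to the mean or above it in each group, so no neighbours in that order differed beyond their spread.

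The 16 Ttr levels fell into separate sets. There were 9 libraries at 5.21 to 51.2 CPM and 7 at 231 to 2182 CPM, with a 4.51-fold step between the sets, against 2.04-fold for the next largest step. The upper set held 2 libraries of 5xFAD-Dp16, 1 of 5xFAD, 2 of Dp16 and 2 of wild-type, from 3 females and 4 males. In the library of highest Ttr, 5xFAD-Dp16 replicate 4, this 1 gene took 0.226% of all counts (exact binomial 95% interval 0.224 to 0.228%). In the library of lowest Ttr, Dp16 replicate 3, it took 0.000489% (0.0004 to 0.000593%). These intervals cover counting error only.

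**Figure D1:**
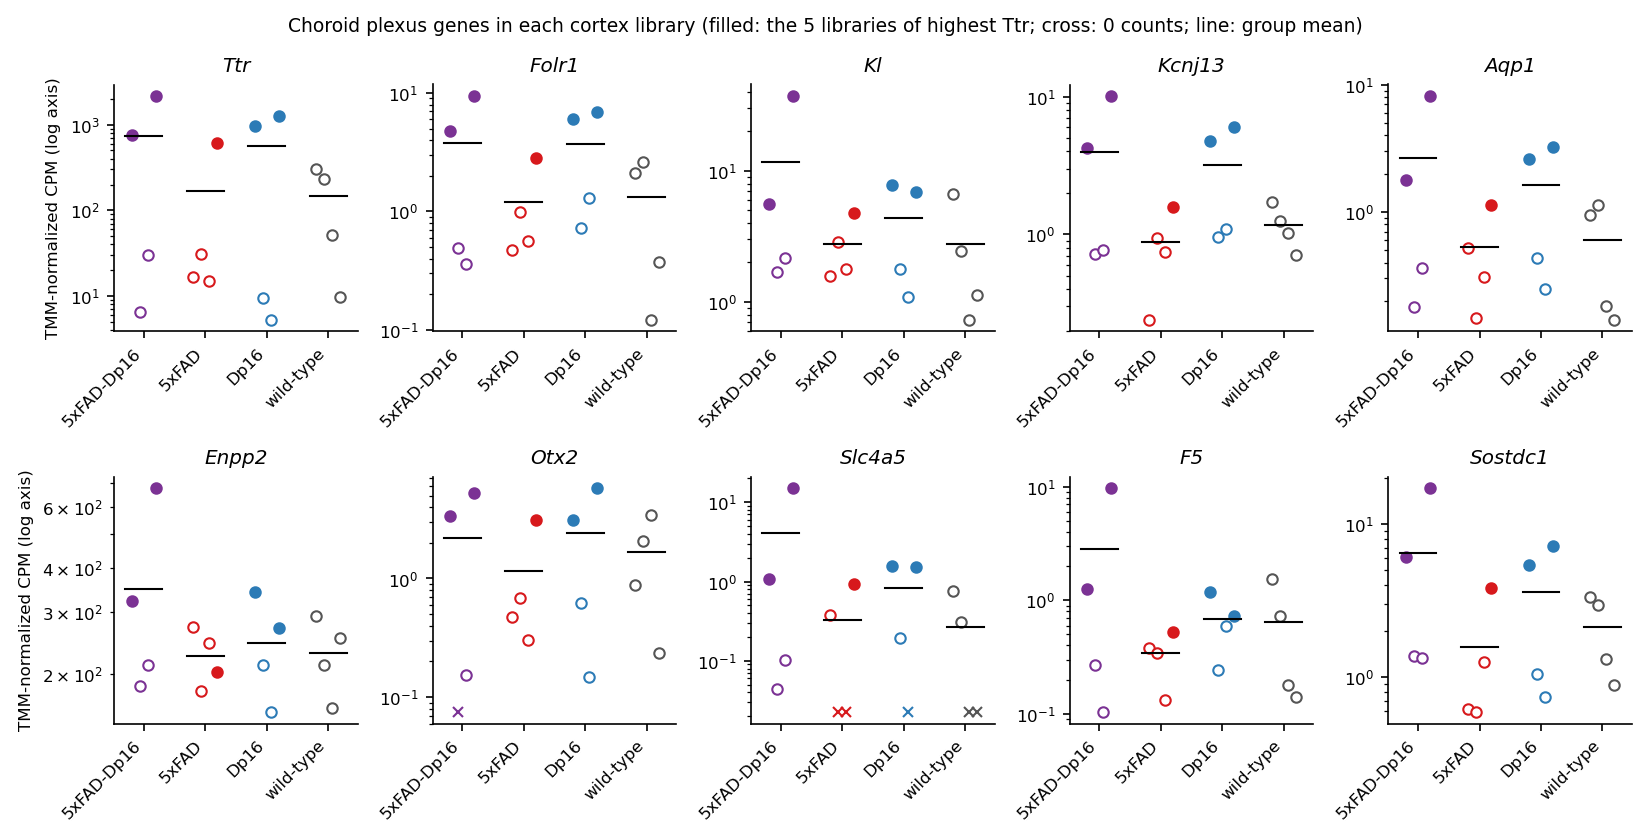
TMM-normalized CPM (log axes) of each of the 10 choroid plexus genes in every library, with 4 libraries in each of the 5xFAD-Dp16, 5xFAD, Dp16 and wild-type groups. Filled points are the 5 libraries of highest Ttr, crosses at the foot of a panel are libraries with 0 counts, and lines are group means; in the Ttr panel each group spans high and low libraries, from 5.21 to 2182 CPM in all.

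Per gene length, Ttr had the highest mean of the members, which the libraries of high Ttr carried. Mean RPKM over the 16 libraries was 349 for Ttr and 79.1 for Enpp2, then 1.97 for Sostdc1, 1.84 for Kcnj13, 1.62 for Folr1, 1.08 for Kl, 0.618 for Otx2, 0.524 for Aqp1, 0.258 for Slc4a5 and 0.156 for F5. The lowest RPKM of any library was 4.13 for Ttr and 40.9 for Enpp2, and Enpp2 stood above Ttr in RPKM in 9 of 16 libraries. In 5xFAD-Dp16 replicate 2, for example, Enpp2 had 55.1 RPKM and Ttr 5.45.

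Among the transport genes, Folr1 had 107, 11, 7 and 191 counts in 5xFAD-Dp16 replicates 1 to 4, 10, 20, 13 and 64 in 5xFAD, 137, 15, 26 and 151 in Dp16, and 36, 51, 2 and 8 in wild-type. Aqp1 had 40, 4, 7 and 165 counts in 5xFAD-Dp16, 11, 3, 7 and 26 in 5xFAD, 60, 9, 5 and 71 in Dp16, and 16, 22, 3 and 3 in wild-type. Both were high where Ttr was high, and the groups overlapped for both. Kcnj13 had 95, 16, 15 and 204 counts in 5xFAD-Dp16, 5, 19, 17 and 36 in 5xFAD, 108, 20, 22 and 132 in Dp16, and 29, 24, 17 and 15 in wild-type. This potassium channel gene kept 5 to 22 counts in the 9 libraries of low Ttr, and its overlap with Gigyf2 leaves these counts uncertain. Slc4a5 had 24, 1, 2 and 304 counts in 5xFAD-Dp16, 8, 0, 0 and 21 in 5xFAD, 36, 4, 0 and 33 in Dp16, and 13, 6, 0 and 0 in wild-type. The bicarbonate cotransporter gene was thus at 0 in 5 of 16 libraries, each of them low in Ttr, and stood far above every other library in 5xFAD-Dp16 replicate 4.

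Among the secreted proteins and klotho, Sostdc1 had 135, 31, 26 and 345 counts in 5xFAD-Dp16, 13, 12, 29 and 87 in 5xFAD, 124, 22, 15 and 157 in Dp16, and 57, 57, 22 and 19 in wild-type. Kl had 124, 38, 42 and 755 counts in 5xFAD-Dp16, 33, 58, 41 and 109 in 5xFAD, 177, 37, 22 and 151 in Dp16, and 114, 47, 12 and 24 in wild-type. For both, the highest library was 5xFAD-Dp16 replicate 4. F5 had 28, 6, 2 and 197 counts in 5xFAD-Dp16, 8, 7, 3 and 12 in 5xFAD, 27, 5, 12 and 16 in Dp16, and 26, 14, 3 and 3 in wild-type. Outside the same library the coagulation factor gene never passed 28 counts.

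Enpp2 had the smallest range of the members. Its counts were 7180, 4130, 4126 and 13664 in 5xFAD-Dp16, 5708, 3617, 5623 and 4602 in 5xFAD, 7837, 4385, 3126 and 5924 in Dp16, and 4968, 4090, 2640 and 5372 in wild-type. The highest library exceeded the lowest 4.38-fold in CPM, against 29.0-fold for Sostdc1 and 95.2-fold for F5. The oligodendrocyte list, whose cells also make autotaxin, summed to 8040 to 9349 CPM in 5xFAD-Dp16, 8699 to 11004 in 5xFAD, 6011 to 8746 in Dp16 and 7989 to 10275 in wild-type libraries, a 1.83-fold range in all. Its part in the level of Enpp2 was not tested.

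Otx2 had 75, 0, 3 and 106 counts in 5xFAD-Dp16, 10, 14, 7 and 71 in 5xFAD, 71, 13, 3 and 127 in Dp16, and 15, 40, 57 and 5 in wild-type. Most of the high counts lay in libraries high in Ttr, but wild-type replicate 3 did not follow, with 57 Otx2 counts (3.44 CPM) beside 2 of Folr1 and 0 of Slc4a5. That library also had the highest summed levels of the hypothalamus list (88.0 CPM, against at most 28.1 CPM in 5xFAD-Dp16, 42.1 in 5xFAD and 30.1 in Dp16 libraries) and of the thalamus and habenula list (206 CPM, against at most 103, 97.5 and 116 CPM in the same groups). Single genes in it stood at 39.3 CPM for Pmch and 19.4 CPM for Avp, which encode hypothalamic peptides. Over the 16 libraries the medians of these genes were 0.318 and 0.439 CPM. The meninges and fibroblasts list was also highest in wild-type replicate 3, at 134 CPM. Its maxima were 95.9 CPM in 5xFAD-Dp16, 105 in 5xFAD and 107 in Dp16 libraries. The part of these regions and tissues in the level of Otx2 was not tested.

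The spread within groups set the members apart from most genes. The SD of log2 CPM within groups had a median of 1.55 over the 10 members, against 0.40 over the 17555 genes tested. It was 3.34 for Ttr, 2.18 for Slc4a5, 2.02 for Otx2, 1.69 for Folr1, 1.59 for Aqp1, 1.497 for F5, 1.43 for Kl, 1.38 for Sostdc1 and 1.24 for Kcnj13, and these genes lay at percentiles 99.1 to 99.97 of all genes. Enpp2, at 0.54, lay at percentile 70.4. The share of a member's variance that lay between groups was 3.16% for Otx2, 3.44% for Ttr and at most 27.4% (Kcnj13), with a median of 14.1% over the members and 14.5% over all genes.

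The members followed one order of libraries. The 5 libraries of highest Ttr were 5xFAD-Dp16 replicates 4 and 1, 5xFAD replicate 4, and Dp16 replicates 4 and 1. These same 5 were also the top 5 for Folr1, Aqp1, Slc4a5 and Sostdc1, which is 4 of the other 9 members, while 0.1025% of all genes tested (18 of 17555) shared all 5. Kl, Kcnj13, Otx2 and F5 shared 4 of the 5 and Enpp2 shared 3. As the members were chosen with earlier results of these data known, this contrast with all genes is a description and not a test. The highest library of all was 5xFAD-Dp16 replicate 4 for 9 of the 10 members and Dp16 replicate 4 for Otx2.

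**Figure D2:**
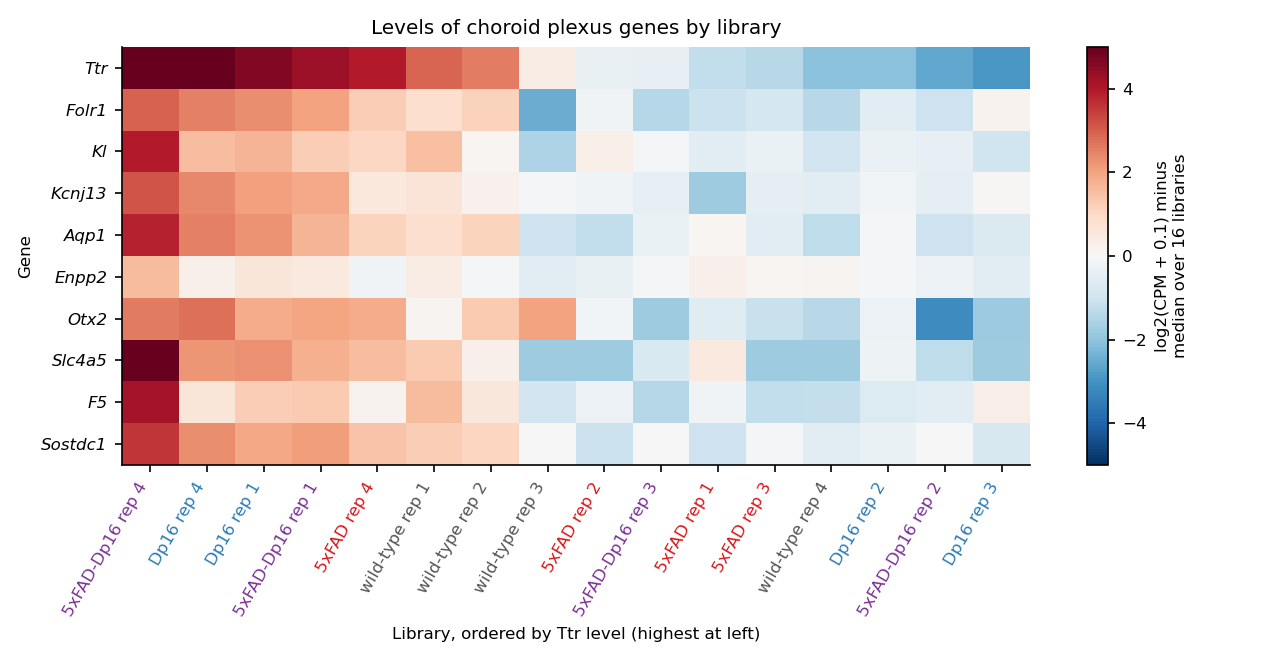
Level of each choroid plexus gene (rows) in the 16 libraries (columns, ordered by Ttr with the highest at left), as log2(CPM + 0.1) minus the gene's median over the libraries. Colours stop at 5 and -5, and label colours give the group; the red cells of high levels gather in the same columns for most genes, with Otx2 in wild-type replicate 3 and the pale row of Enpp2 as exceptions.

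Correlations of log2 CPM with Ttr were computed for the 9 other members. Over all 16 libraries the adjusted permutation p was under 0.05 for 9 of 9, but the libraries fall into 2 sets by Ttr and no pooled coefficient is given. Within the 7 libraries of high Ttr, Pearson's r was 0.94 for Kcnj13 (exact permutation p = 0.00119, adjusted over 9 relations p = 0.00286; Spearman's rho 0.96, adjusted exact p = 0.005) and 0.94 for Folr1 (exact p = 0.00159, adjusted p = 0.00286; rho 0.96, adjusted exact p = 0.005). It was 0.93 for Sostdc1, 0.91 for Aqp1, 0.88 for Slc4a5, 0.84 for Otx2 and 0.81 for Kl, with adjusted exact permutation p-values of 0.00268, 0.00286, 0.00268, 0.0232 and 0.0245. Their rho values were 0.96, 0.96, 0.96, 0.82 and 0.86, with adjusted exact p-values of 0.005, 0.005, 0.005, 0.0439 and 0.0357. For Enpp2 (r = 0.72, adjusted exact p = 0.0609; rho 0.64, 0.156) and F5 (r = 0.57, adjusted exact p = 0.199; rho 0.43, 0.354) the relation did not pass. Without the 2 libraries farthest from the median Ttr, r stayed at 0.85 to 0.95 for Folr1, Kcnj13, Aqp1, Otx2, Slc4a5 and Sostdc1. It was 0.22 for Kl, whose relation thus rested on those libraries. For Enpp2 and F5, which had not passed, it was 0.14 and -0.41.

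Within the 9 libraries of low Ttr, r ran from -0.58 (Folr1) to 0.71 (Otx2), and the smallest adjusted exact permutation p was 0.235 (Pearson) and 0.332 (Spearman, both for Otx2). No relation passed in these libraries, where the other members had 0 to 58 counts each, apart from Enpp2 with 2640 to 5708 (r = -0.067).

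The members' proportion to Ttr was read from the libraries where Ttr was high. Counts per 1000 Ttr counts were compared between the library of highest Ttr, 5xFAD-Dp16 replicate 4, and the next 4. For Folr1 the ratio was 4.35 in 5xFAD-Dp16 replicate 4 and 4.57 to 6.28 in the other 4 libraries, and for Kcnj13 it was 4.65 and 2.57 to 5.58. Sostdc1 stood at 7.86 in that library and 5.61 to 7.92 in the others, and Enpp2 at 311 and 216 to 421. Kcnj13, Sostdc1 and Enpp2 lay in the range of these 4 libraries and Folr1 just under it. The proportions were not constant among the 4, since the intervals of Enpp2 in Dp16 replicate 4 (210 to 222) and 5xFAD-Dp16 replicate 1 (409.9 to 433) did not overlap, nor did those of Kcnj13 in 5xFAD replicate 4 (1.80 to 3.56) and 5xFAD-Dp16 replicate 1 (4.51 to 6.82).

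Kl, Slc4a5 and F5 had ratios in 5xFAD-Dp16 replicate 4 above the intervals of each of the other 4. Kl had 17.2 counts per 1000 Ttr counts in 5xFAD-Dp16 replicate 4 (exact 95% interval 15.98 to 18.5), against 5.50 to 8.01 in the other 4 libraries, where the highest upper bound was 9.39. Slc4a5 had 6.92 (6.16 to 7.75) in that library, against 1.20 to 1.63 and a highest upper bound of 2.29. F5 had 4.49 (3.88 to 5.16), against 0.583 to 1.64 and a highest upper bound of 2.38. Over the pooled counts of the other 4 libraries these were excesses of 2.47-fold for Kl, 4.90-fold for Slc4a5 and 4.36-fold for F5. Aqp1 stood at 3.76 (3.21 to 4.38) in the same library and 1.86 to 2.71 in the others, with overlapping intervals. Otx2 was lower, at 2.41 (1.98 to 2.92), against 3.21 to 5.07, also with overlapping intervals. The 2 wild-type libraries of the upper set, which had less Ttr, stood above those 4 libraries for several members. Per 1000 Ttr counts, wild-type replicates 1 and 2 had 967 and 917 of Enpp2, 22.2 and 10.5 of Kl, 11.1 and 12.8 of Sostdc1, 7.01 and 11.4 of Folr1, and 5.06 and 3.14 of F5. For Kl and F5, wild-type replicate 1 thus stood above 5xFAD-Dp16 replicate 4 too (17.2 and 4.49). High ratios of Kl and F5 were not particular to 5xFAD-Dp16 replicate 4. Slc4a5 stood at 2.53 and 1.35 in wild-type replicates 1 and 2, below its 6.92 in 5xFAD-Dp16 replicate 4. The spread of such ratios between mice was not measured, since the intervals cover counting error only. With 1 library at the top, these ratios compare libraries and not genotypes.

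**Figure D3:**
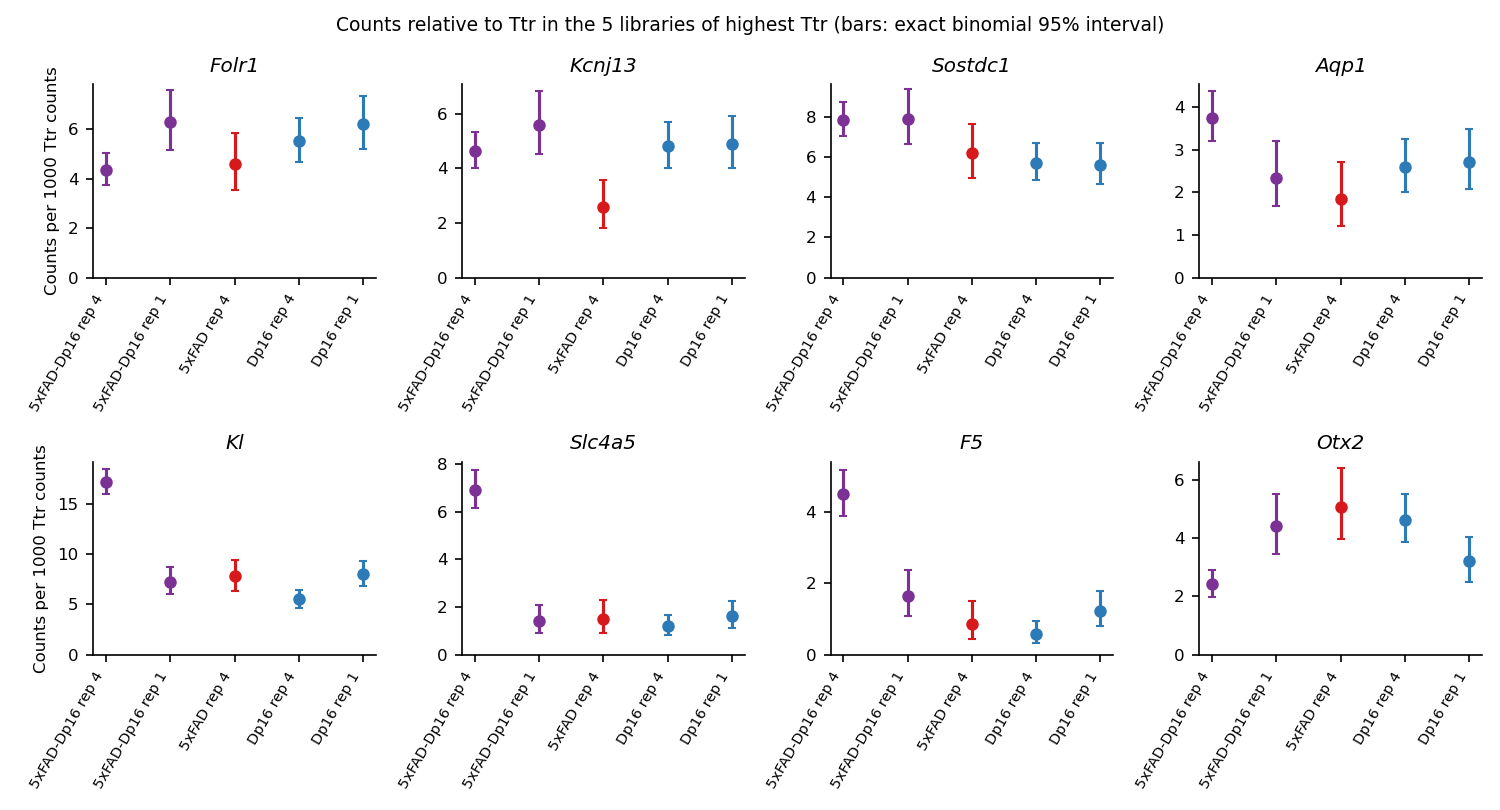
Counts of 8 members per 1000 Ttr counts in the 5 libraries of highest Ttr, with exact binomial 95% intervals that cover counting error only. Kl, Slc4a5 and F5 in 5xFAD-Dp16 replicate 4 lie above the intervals of the other 4 libraries (17.2, 6.92 and 4.49), while Folr1, Kcnj13 and Sostdc1 lie close together in most of the 5.

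A further list of 26 choroid plexus genes gave a wider view, of which 25 were tested (Slco1a5 was not). This list was chosen with earlier results of these data known, so it is not independent of these libraries. Likeness was measured as Pearson's r, over the 16 libraries, between a gene's log2 CPM and the members' profile, the mean of the members' standardised log2 CPM. The members' own r, which the profile contains, was 0.79 (Otx2) to 0.98 (Aqp1). Of the 25 genes, 23 had r above 0.5, with a median of 0.81, and 7 shared all 5 top libraries with Ttr (0.1025% of all genes tested). The share of all genes with r above 0.5 is not given, for this list or the lists below. The profile was 2.24 in 5xFAD-Dp16 replicate 4 and 1.08 in the next library, Dp16 replicate 4. That 1 library thus weighs heavily in r, and r without it is not given. The 6 of highest mean RPKM were Igfbp2, Spint2, Car12, Kcne2, Calml4 and Ace. Kcne2, a potassium channel subunit of the epithelium, had 374, 4, 1 and 510 counts in 5xFAD-Dp16, 6, 0, 0 and 169 in 5xFAD, 313, 2, 5 and 446 in Dp16, and 12, 29, 14 and 3 in wild-type libraries. It was thus at 169 counts or more in the 5 libraries of highest Ttr and at 29 or fewer in the other 11.

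Among these 6 genes the coefficient was lowest for Igfbp2 and Spint2. Igfbp2, an insulin-like growth factor binding protein that meninges and astrocytes also make, ran from 40.5 to 93.4 CPM with r = 0.48, and Spint2, a serine protease inhibitor, from 15.7 to 46.7 CPM with r = 0.51. Car12, a carbonic anhydrase, ran from 4.76 to 36.4 CPM with r = 0.81, and Ace, the angiotensin-converting enzyme, from 4.95 to 43.7 CPM with r = 0.87. Both were highest in 5xFAD-Dp16 replicate 4. Calml4, a calmodulin-like gene, ran from 0.492 to 12.7 CPM with r = 0.71 and was highest in Dp16 replicate 4.

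Kcne2 and Clic6, a chloride channel family gene, lie in the triplicated segment (chromosome 16, 92292389 to 92298129 and 92485736 to 92541243). Per 1000 Ttr counts, Kcne2 stood at 11.6 and 22.0 in 5xFAD-Dp16 replicates 4 and 1, at 12.1 in 5xFAD replicate 4 and at 16.3 and 14.2 in Dp16 replicates 4 and 1. Clic6 stood at 23.2 and 12.9 in the same 5xFAD-Dp16 libraries, at 8.14 in 5xFAD replicate 4, and at 5.94 and 8.64 in the Dp16 libraries. The 5xFAD library lacks the extra segment. Wild-type replicates 1 and 2 lack it too, and have less Ttr. In these wild-type libraries Kcne2 stood at 2.34 and 6.50 and Clic6 at 20.3 and 17.9. An effect of copy number was not tested.

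Over all genes tested, the 10 outside the members with the most similar profile were Rdh5, a retinol dehydrogenase (r = 0.93), Cldn2, a tight junction gene (0.92), Tmem72 (0.91), Kcne2 (0.90), Slc29a4, a monoamine transporter (0.89), Slc2a12, a glucose transporter family gene (0.88), Mfrp (0.88), Ace (0.87), Wdr86 (0.87) and Prr32 (0.87). Of these, 8 were on the further list, and Rdh5 and Wdr86 were not. Rdh5 ran from 0.895 to 7.45 CPM, and the 10 genes were highest in 5xFAD-Dp16 replicate 4 except Prr32, which was highest in Dp16 replicate 4.

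Other neighbours of the cortex did not run in the members' order. Of the 14 genes of ependyma, the ciliated lining of the ventricles, 2 had r above 0.5 (Rsph1 0.65 and Cfap126 0.56). The median r was 0.16 and none shared the 5 top libraries. The list summed to 39.5 to 64.9 CPM in 5xFAD-Dp16, 52.1 to 72.3 in 5xFAD, 55.5 to 106 in Dp16 and 43.3 to 72.5 in wild-type libraries. Its highest library, Dp16 replicate 3, was the lowest of all in Ttr. Rarres2 and Fam183b, its genes of highest RPKM, had r = -0.15 and -0.30.

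Of the 13 meningeal and fibroblast genes tested, 1 had r above 0.5 (Igf2, 0.57), and the 2 of highest RPKM, Mgp and Dcn, had r = -0.30 and 0.02. The lists of vessels, oligodendrocytes, astrocytes, striatum, hippocampus, thalamus and habenula, hypothalamus, blood and cortical projection neurons held no gene above 0.5, and their median r ran from -0.11 (oligodendrocytes) to 0.38 (striatum). In the striatum list, Penk had r = 0.44 and Ppp1r1b r = 0.43. The summed striatum list ran from 1572 to 1873 CPM in 5xFAD-Dp16, 741 to 1614 in 5xFAD, 767 to 1859 in Dp16 and 1316 to 1946 in wild-type libraries.

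Among the genes of highest RPKM in the remaining lists were Itm2a and Rgs5 of vessels (r = -0.25 and -0.21), Mbp of myelin (-0.13), Aldoc and Slc1a3 of astrocytes (-0.27 and -0.22), Npnt and Spink8 of hippocampus (0.01 and 0.18), Ramp3 and Calb2 of thalamus and habenula (-0.49 and 0.18), Trh and Pomc of hypothalamus (0.098 and 0.00068), Hbb-bs and Hba-a2 of blood (-0.0011 and 0.13), and Slc17a7 and Lamp5 of cortical projection neurons (0.03 and -0.26). These coefficients are descriptions over the same 16 libraries and share their depth and scaling.

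**Figure D4:**
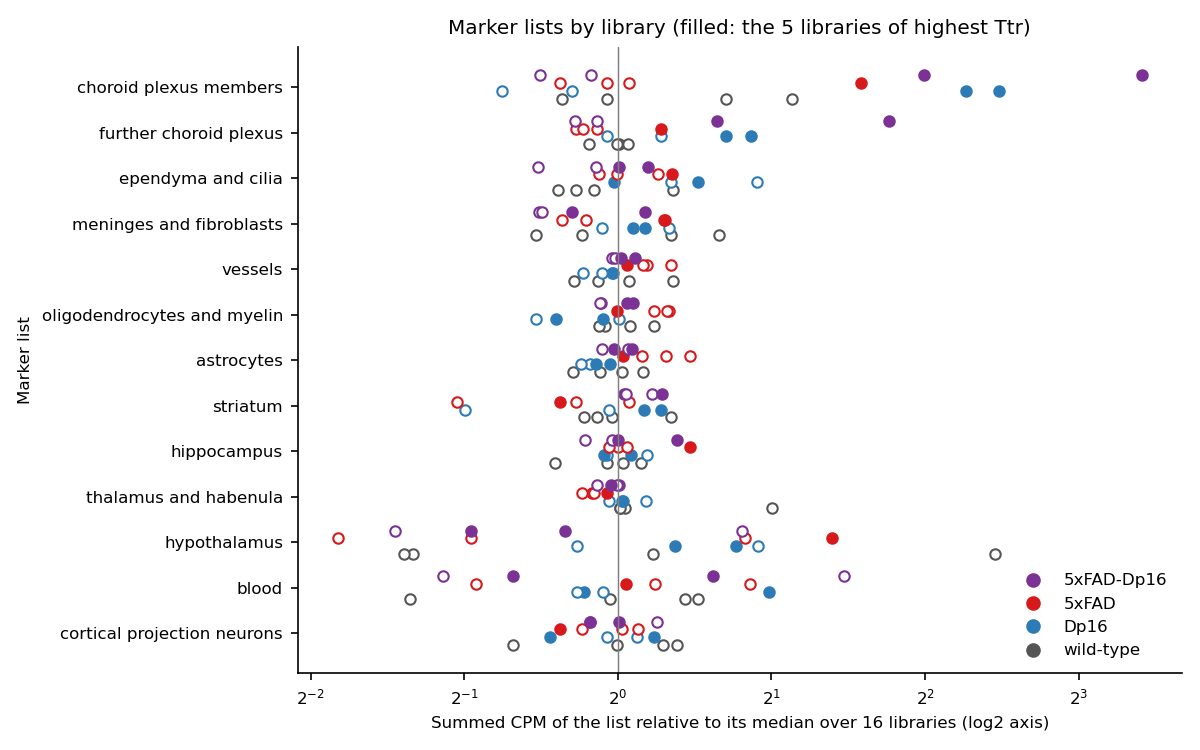
Summed CPM of each marker list in each library, relative to the list's median over the 16 libraries (log2 axis), with the groups from 5xFAD-Dp16 above to wild-type below and filled points for the 5 libraries of highest Ttr. The filled points lie far to the right for the members (up to 2974 CPM) and for the further choroid plexus list (up to 469 CPM), and among the open points for most other lists.

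The 4 genotype groups were then compared with edgeR's quasi-likelihood test over all 17555 genes, with sex in the model and Benjamini-Hochberg adjustment. Comparisons that use the same group share its libraries, so they are not independent. In 5xFAD-Dp16 against wild-type, 0 of 10 members passed an adjusted p of 0.05, against 0.501% of all genes. The 10 fitted log2 fold changes were all above 0, from 0.49 (Otx2) to 3.78 (Slc4a5), with a median of 1.83 over the members and -0.04 over all genes. DESeq2 also called 0 members, and edgeR gave 1 of 10 an unadjusted p under 0.05 (Slc4a5, 3.78 ± 1.76 SE, adjusted p = 0.9998), against 4.52% of all genes. Ttr stood at 2.81 ± 1.86 (SE, n = 4 and 4). In this comparison 0 members had groups that did not overlap, against 2.91% of all genes.

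In 5xFAD-Dp16 against 5xFAD, 0 of 10 members passed in edgeR and in DESeq2, against 0.0057% of all genes in edgeR, and 10 of 10 fitted changes were above 0 (median 2.17 on the log2 scale, 0.0046 over all genes). An unadjusted p under 0.05 was found for 3 members, against 3.59% of all genes. These were Kcnj13 (2.21 ± 0.91 SE), F5 (2.59 ± 1.18) and Sostdc1 (2.13 ± 0.99), and the smallest edgeR adjusted p over the members was 0.9997. Ttr stood at 3.74 ± 2.67. Again 0 members had groups that did not overlap, against 3.21% of all genes.

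Both of these medians depended on 1 library. Without 5xFAD-Dp16 replicate 4 the median log2 fold change of the members was 0.52 against wild-type and 0.62 against 5xFAD. In that fit F5 against wild-type stood at -0.22 and Otx2 at -0.38.

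In Dp16 against wild-type, 0 of 10 members passed in edgeR and in DESeq2, against 0.0057% of all genes in edgeR. The fitted changes were above 0 for 10 of 10 with a median of 0.73, and 0 members had an unadjusted p under 0.05, against 2.20% of all genes. Ttr stood at 0.66 ± 2.50 (SE), but at -0.16 and -0.64 without wild-type replicates 2 and 4 and at -0.32 and -0.34 without 5xFAD-Dp16 replicates 2 and 3. In 5xFAD against wild-type, 0 of 10 members passed in edgeR and in DESeq2, against 1.52% of all genes in edgeR, 2 of 10 were above 0 (Kl and Slc4a5), and the median was -0.31. Again 0 members had an unadjusted p under 0.05, against 7.10% of all genes. Ttr stood at -0.93 ± 2.28 (SE) in this fit with a sex term, a sign opposite to that of the mean CPM (169 in 5xFAD and 148 in wild-type libraries). It was above 0 without wild-type replicate 1 (0.14) and without 5xFAD replicates 1 (0.097) or 3 (0.0999). With 1 library left out, the median ran from 0.36 (without Dp16 replicate 4) to 1.59 (without wild-type replicate 1) for Dp16, and from -1.08 (without 5xFAD replicate 4) to 0.091 (without wild-type replicate 1) for 5xFAD. Groups that did not overlap were found for 0 members in both, against 1.56% of all genes for Dp16 and 5.19% for 5xFAD.

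In 5xFAD-Dp16 against Dp16, 0 of 10 members passed in edgeR and in DESeq2, against 0.387% of all genes in edgeR. The median was 0.86, and ran from -0.50 (without 5xFAD-Dp16 replicate 4) to 1.63 (without 5xFAD-Dp16 replicate 2) with 1 library left out. There were 0 members with an unadjusted p under 0.05 (3.92% of all genes) and 0 with groups that did not overlap (3.09%). Ttr stood at 2.15 ± 2.77 (SE). For the interaction of both genotypes, which asks whether the change with the duplication differs between mice with and without the transgenes, 0 of 10 members and 0.0% of all genes passed in edgeR. DESeq2 called 0 members too, and 0 members but 1.36% of all genes had an unadjusted p under 0.05. The median was 1.06, and ran from -0.12 to 1.94 without the same libraries. Ttr stood at 3.08 ± 4.36.

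**Figure D5:**
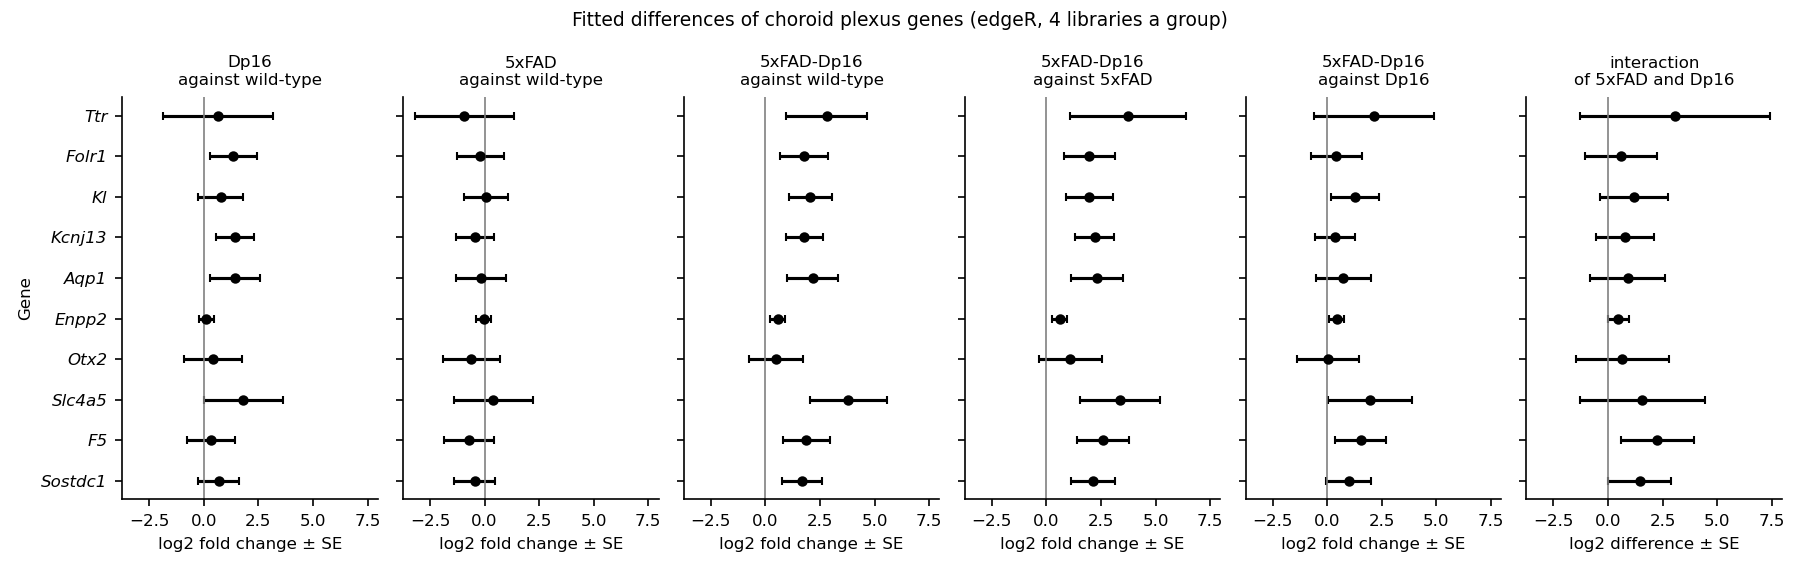
Fitted log2 fold changes of the 10 members with their standard errors in the 5 pairwise comparisons and the interaction (edgeR, 4 libraries a group). Ttr has the widest bars (2.81 ± 1.86 for 5xFAD-Dp16 against wild-type) and Enpp2 the narrowest, and no member passed the adjusted threshold in any panel.

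Sex was not spread evenly over the libraries of high Ttr. In 5xFAD-Dp16 both of the upper set were female, while in 5xFAD the 1 and in Dp16 both were male. Without the sex term Ttr stood at 0.42 in 5xFAD-Dp16 against Dp16 and at 0.23 in the interaction, against 2.15 and 3.08 with it. It then stood at 0.19 in 5xFAD against wild-type and at 1.91 in Dp16 against wild-type.

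In 5 of the 6 tests the low-count filter decided whether members were called. With the filter, edgeR's quasi-dispersion of Ttr was 43.6 and the prior degrees of freedom were 4.21. Without it, 30908 genes entered the fit, the prior degrees of freedom became infinite and the quasi-dispersion of Ttr was held at 0.626. The SE of Ttr in 5xFAD-Dp16 against wild-type was then 0.22 instead of 1.86, on nearly the same fold change (2.79). Without the filter 7 members were called in 5xFAD-Dp16 against wild-type (0.835% of all 30908 genes) and 8 against 5xFAD (0.136%), from the same overlapping libraries. There were 2 called against Dp16 (0.764% of all genes), 1 in 5xFAD against wild-type (1.38%), 1 in the interaction (0.0809%) and 0 in Dp16 against wild-type (0.0647%).

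The further choroid plexus list gave 0 of 25 genes called in each of the 6 tests, in edgeR and in DESeq2. Shares of all genes called are those of edgeR here and above, and the shares for DESeq2 are not given. The edgeR p was under 0.05 without adjustment for 5 of 25 genes in 5xFAD-Dp16 against wild-type (4.52% of all genes) and 8 against 5xFAD (3.59%). It was so for 1 in Dp16 against wild-type (2.20% of all genes), 1 in 5xFAD against wild-type (7.10%), and 0 in 5xFAD-Dp16 against Dp16 (3.92%) and in the interaction (1.36%). Its median log2 fold change was 1.12 for 5xFAD-Dp16 against wild-type, with 25 of 25 above 0, and 1.21 against 5xFAD, with 24 of 25 above 0. Without 5xFAD-Dp16 replicate 4 these medians were 0.27 and 0.37, and the unadjusted p was under 0.05 for 0 and 1 genes (3.797% and 3.446% of all genes). For Dp16 against wild-type it was 0.51 (21 of 25 above 0), and for 5xFAD against wild-type 0.03 (13 of 25). The ependymal list, measured in the same libraries, had medians of 0.0069 for 5xFAD-Dp16 against wild-type, -0.17 against 5xFAD and -0.62 against Dp16. For Dp16 against wild-type its median was 0.61, with 14 of 14 above 0, for 5xFAD against wild-type 0.30, and for the interaction -0.80. In edgeR 0 of 14 were called in each test, and the unadjusted p was under 0.05 for 0, 2, 4, 5, 2 and 6 genes in that order of tests, while DESeq2 called 1 in 5xFAD against wild-type. The striatum list had medians of 0.19, 0.45, 0.30, -0.18, -0.40 and 0.64 in the same order. Of its 12 genes, 9, 12, 11, 2, 0 and 12 were above 0. Both edgeR and DESeq2 called 0 of these 12 in each test. A shift in the same direction as the members was thus not particular to choroid plexus lists.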

How the data were processed

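Polyadenylated RNA of 16 cortices was extracted with TRIzol and made into strand-specific libraries (Tecan/Nugen Universal Plus mRNA kit, Illumina sequencing of paired ends), per the labels' protocols. Tools in the submitters' processing notes were HISAT2 2.1.0 and HTSeq 0.6.1, beside SAMtools 1.5, FastQC 0.11.5 and bcl2fastq, with GRCm38 as the build. The authors deposited raw counts per gene without normalization, and RPKM values, which equal those counts divided by library total and gene length (implied lengths were within 9.85e-09 of whole numbers). Coordinates were taken from GENCODE M21 on GRCm38.

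From the counts, edgeR 4.0.16 (R 4.3.3) was run with TMM, the filterByExpr minimum count of 10, robust quasi-likelihood fits of the 16 libraries with a sex term, with Benjamini-Hochberg adjustment over 17555 genes and a threshold of 0.05. SEs were derived from the F statistic. Alternatives were no sex term, no filter on low counts, RLE size factors, DESeq2 1.42.0, a replicate block, only the compared groups in the fit, limma-trend 3.58.1 on log2(RPKM + 0.1) and log2(RPKM + 1), and each library left out. In counts simulated for Dp16 against wild-type (17273 genes), edgeR called 2% of 50 genes changed 1.5-fold, 50% of 50 changed 2-fold, 94% of 50 changed 4-fold and 100% of 50 changed 8-fold, with 9 false calls. The changed genes were drawn at random above a minimum level, with their own spread. The biological coefficient of variation (spread between libraries beyond counting) had a median of 0.27 over all genes. It was 0.35 (Enpp2) to 1.68 (Slc4a5) for the members, so these shares were not measured at the members' spread. Correlations used log2 CPM with a prior count of 2, exact permutation within the sets of 9 and 7 libraries, and 100000 resamples over 16.

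The 13 gene lists (155 symbols), which include the members as 1 list, were chosen with earlier results of these data known. Named genes were the members, the 6 genes of highest mean RPKM in the further choroid plexus list, 2 in each other list, and the 10 genes with an approved symbol whose profile was most like the members'. Of these, 1 gene in the myelin list is not reported here. Clic6, Rsph1, Cfap126, Igf2, Pmch, Avp and the genes overlapping members were named after their values or positions were seen.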

Additional observations from a re-analysis of the deposited data

Results flagged for a closer look

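Each member was checked in each group of 4 libraries for a single library far from the other 3, measured as the gap to the nearest library over the group's range. In 5 of 40 groups this gap passed Dixon's 95% critical value for 4 values. The chance rate of about 1 in 20 holds for independent normal values. These CPM values are skewed and the members share their libraries, so that rate does not apply and no excess over chance is shown.

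In 5xFAD, replicate 4 stood apart for Ttr (615 CPM, next highest 30.5) and for Otx2 (3.12 CPM, next highest 0.69). The same library was also the highest of its group for Folr1, Kl, Kcnj13, Aqp1, Slc4a5, F5 and Sostdc1.

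In 5xFAD-Dp16, replicate 4 stood apart for Kl (37.5 CPM, next highest 5.56), Slc4a5 (15.1 CPM, next highest 1.08) and F5 (9.79 CPM, next highest 1.26). These are also the 3 genes whose counts per 1000 Ttr counts were highest in that library among the 5 of highest Ttr by more than their intervals.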

How the results depend on the processing

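The count of 0 called members in each comparison held under DESeq2, RLE size factors, no sex term, the replicate block, fits of only the groups compared, both limma fits and every left-out library. Without the low-count filter, members were called in 5xFAD-Dp16 against wild-type (7, with 258 of all 30908 genes), 5xFAD-Dp16 against 5xFAD (8, with 42), 5xFAD-Dp16 against Dp16 (2, with 236), 5xFAD against wild-type (1, with 426) and the interaction (1, with 25), as the fit's prior degrees of freedom became infinite. The Ttr log2 fold change, Dp16 against wild-type (0.66), stood at -1.42 with the replicate block, -0.65 with only the groups compared and -0.64 to 1.99 with a library left out, and Otx2 in that comparison (0.44) at -0.77 with the block. The members' median in 5xFAD-Dp16 against 5xFAD (2.17) was 0.58 on log2(RPKM + 1). Ttr in 5xFAD against wild-type (-0.93) was 0.19 without the sex term and -2.84 to 0.14 with a library left out, and in 5xFAD-Dp16 against wild-type (2.81) it was -0.33 with the replicate block. Otx2 in the same comparison (0.49) was -1.19 with the replicate block, -0.19 on log2(RPKM + 0.1), -0.73 with only the groups compared and -0.38 to 1.53 with a library left out, and F5 (1.87) was -0.22 to 2.71. The cause of these changes was not tested. With only the groups compared, Slc4a5 and F5 failed the low-count filter in some comparisons, and the interaction could not be fitted.

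Same-numbered libraries correlated at 0.063 on average (-0.35 to 0.51 over 24 pairs) and differently numbered ones at -0.021 (-0.62 to 0.45 over 72 pairs), so the numbers were not taken to pair the samples. Counts of all genes called ranged over the settings from 0 to 20 for Dp16 against wild-type (1 as reported), 115 to 426 for 5xFAD against wild-type (266), 9 to 258 for 5xFAD-Dp16 against wild-type (88), 1 to 42 against 5xFAD (1), 22 to 236 against Dp16 (68) and 0 to 25 for the interaction (0). All 9 relations of Ttr with the other members passed over 16 libraries under each of 20 alternatives. These settings kept libraries of both Ttr sets, so they do not test a relation within a set. Within the libraries of low Ttr no relation passed, and within those of high Ttr Enpp2 and F5 did not. Depth limits Folr1, Kl, Kcnj13, Aqp1, Otx2, Slc4a5, F5 and Sostdc1, which had 0 to 58 counts in libraries of low Ttr.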
